A study of Mus musculus with 6 samples.

Results

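The chemokine ligands studied here are 8 small secreted proteins that steer the movement of leukocytes: Ccl3, Ccl4, Ccl5, Ccl1, Xcl1, Cxcl10, Ccl6 and Ccl9. The genes were given by name. Each was measured by the 1 probe set that the platform's probe table assigns to it alone, so 8 of 8 genes were measured, out of 19938 genes in all. The samples were 6 arrays of T cells sorted from the spleens of B6D2F1/J mice, an F1 hybrid with 1 parent of the B6 strain, 3 mice given PBS (phosphate-buffered saline) and 3 given rapamycin, an inhibitor of the kinase mTOR, at 1.5 mg/kg. All 6 mice had been lethally irradiated and had received T cell-depleted B6 marrow. The treatment protocol names recipients with B6 spleen cells in the graft and recipients without, and no label tells which a given mouse was. PBS or rapamycin was injected into the peritoneum every other day until day 10, when CD3-positive cells were taken by flow cytometry. The labels do not separate donor from surviving host T cells, and no age is given.

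Chemokines are grouped by the spacing of the cysteines near their start into CC, CXC, C and CX3C classes, and they signal through G protein-coupled receptors on the cells they attract. Activated T cells, above all CD8 T cells, release CCL3, CCL4, CCL5 and XCL1 together with their cytokines, and in graft-versus-host disease such ligands help bring further leukocytes to lymphoid and target tissue. CXCL10 is induced by interferons, while CCL6 and CCL9 are rodent CC chemokines made mainly by myeloid cells.

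The 8 genes lie at 4 places in the mouse genome by the RefSeq gene table (GRCm38.p6). Ccl5, Ccl9, Ccl6, Ccl3 and Ccl4 follow each other in this order on chromosome 11 with no other protein-coding gene starting between them, and Ccl1 lies elsewhere on chromosome 11, beside Ccl8. Xcl1 is on chromosome 1 and Cxcl10 on chromosome 5. RefSeq promoter windows were found for 6 of the 8 genes, all but Ccl4 and Ccl5. The sequences below are the 250 bases before the annotated start (GRCm38.p6, minus strand, 5′ to 3′) of 5 genes: 3 that were all high in PBS mouse 3 and rapamycin mouse 2, Ccl3 (chr11:83649379-83649628), Ccl1 (chr11:82179813-82180062) and Cxcl10 (chr5:92348890-92349139), and the neighbours Ccl6 (chr11:83593088-83593337) and Ccl9 (chr11:83578637-83578886), both highest in the same mouse. Capitals mark the NFAT core GGAAA in Ccl3, this core and the kappa-B pattern GGANNTNCC in Ccl1, the kappa-B pattern and the interferon response pattern GAAANNGAA in Cxcl10, and the longest run shared by Ccl6 and Ccl9.
Ccl3: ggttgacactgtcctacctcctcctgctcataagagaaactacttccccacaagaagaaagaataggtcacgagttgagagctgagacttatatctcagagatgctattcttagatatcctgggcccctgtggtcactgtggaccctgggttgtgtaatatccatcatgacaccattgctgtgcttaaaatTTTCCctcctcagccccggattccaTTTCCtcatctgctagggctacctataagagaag
Ccl1: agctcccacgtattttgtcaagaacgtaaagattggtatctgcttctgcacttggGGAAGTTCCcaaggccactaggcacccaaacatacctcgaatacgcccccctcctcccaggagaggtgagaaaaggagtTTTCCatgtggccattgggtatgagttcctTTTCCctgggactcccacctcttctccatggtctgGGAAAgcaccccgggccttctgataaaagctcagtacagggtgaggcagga
Cxcl10: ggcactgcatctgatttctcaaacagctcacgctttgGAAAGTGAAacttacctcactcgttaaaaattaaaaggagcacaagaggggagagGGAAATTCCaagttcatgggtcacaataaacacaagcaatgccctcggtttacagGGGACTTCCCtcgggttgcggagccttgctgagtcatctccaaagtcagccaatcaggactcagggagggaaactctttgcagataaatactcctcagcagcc
Ccl6: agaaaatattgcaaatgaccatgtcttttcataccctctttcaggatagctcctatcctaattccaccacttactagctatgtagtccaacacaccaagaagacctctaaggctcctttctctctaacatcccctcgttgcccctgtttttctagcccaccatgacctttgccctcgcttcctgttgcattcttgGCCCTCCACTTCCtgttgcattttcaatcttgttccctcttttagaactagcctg
Ccl9: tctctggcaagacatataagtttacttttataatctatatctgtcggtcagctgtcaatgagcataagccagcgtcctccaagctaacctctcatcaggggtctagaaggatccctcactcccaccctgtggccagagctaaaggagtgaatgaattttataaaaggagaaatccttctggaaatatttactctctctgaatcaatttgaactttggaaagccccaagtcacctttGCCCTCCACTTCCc

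Both strands were searched, and positions count back from -1, the base before the start. The NFAT core, named after the calcium-dependent factor of activated T cells, had a match in 5 of the 6 windows, all but Ccl6, and in 55.6% of the 32851 windows of the RefSeq table. The kappa-B pattern matched at -158, -103 and -102 in Cxcl10, where the last 2 matches overlap, and at -195 in Ccl1. It was found in 12.2% of all windows. The interferon response pattern matched at -213 in Cxcl10, at -91 in Ccl1 and at -39 in Ccl3, against 7.13% of all windows, and each of these matches overlaps an NFAT core. TGANTCA, the AP-1 pattern, was found at -74 in Cxcl10 and at -53 in Ccl9 (6.75% of all windows), and TATAAA in Ccl9 alone of the 6 (12.4% of all windows). Ccl6 and Ccl9 share a run of 13 bases, at -55 to -43 in Ccl6 and -14 to -2 in Ccl9, where the other 14 pairs of windows share runs of 6 to 10 bases. Aligned over the whole window they were 46.2% identical, within the 40.6% to 48.7% of all 15 pairs.

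The comparison asked whether rapamycin given to the recipient went with different chemokine transcript levels in its splenic T cells. None of the 8 ligands passed the test (limma, Benjamini-Hochberg adjusted p under 0.05), a threshold that 1 of the 19938 genes, or 0.00502%, passed. Ccl6 was the member with the largest difference, 1.46-fold higher with rapamycin, and the only one whose groups did not overlap. Cxcl10 was measured 1.39-fold higher, and the 6 others lay between 0.87-fold and 1.16-fold. Over all 6 mice, both groups together, the spread between the lowest and the highest mouse was 1.47-fold for Ccl5 and 2.55-fold for Ccl9. The others lay between. For some ligands the spread differed between the groups. The SD of Xcl1 was 0.39 with PBS and 0.05 with rapamycin, that of Ccl6 0.07 and 0.49, and that of Ccl9 0.12 and 0.72. All values are log2 expression, differences are rapamycin minus PBS in log2 units, and errors of group means are SDs over 3 mice.

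Counted over the 8 genes, 5 differences were above 0, against 44.7% of all genes, and the median was 0.06, against -0.01 over all genes. Leaving out 1 mouse moved the ligands' median: it was -0.10 without PBS replicate 1, -0.17 without rapamycin replicate 2, -0.02 without rapamycin replicate 3, 0.28 without PBS replicate 3, 0.24 without rapamycin replicate 1 and 0.04 without PBS replicate 2. With array weights it was 0.22. Only Ccl6 had an unadjusted limma p under 0.05, 1 of 8 where 4.67% of all genes had one and 1.6% had one with a higher level. The groups failed to overlap for 1 of 8 members and for 9.42% of all genes, 3.14% with rapamycin above PBS. An absolute difference of 0.5 or more was reached by 1 member and by 0.592% of all genes. Each of the last 3 counts rests on Ccl6 alone. In alternative fits other ligands also had an unadjusted limma p under 0.05, and no ligand passed after adjustment. Cxcl10 did without PBS replicate 3 (0.0119), without rapamycin replicate 1 (0.021), with the replicate number as a block (0.0372) and with array weights (0.0283). Xcl1 did without PBS replicate 1 (0.00346) and Ccl1 without rapamycin replicate 2 (0.0262). The intervals stayed wide: the widest, for Ccl4, ran from 0.63-fold to 1.65-fold, and the narrowest, for Ccl5, from 0.73-fold to 1.16-fold. With 3 arrays a group, changes within these ranges remain compatible with the values of these 2 genes. The measured difference of Ccl6, 1.46-fold with an interval from 1.049-fold to 2.025-fold, lay above the interval of Ccl5 and did not pass the adjusted threshold. Not passing was therefore not read as absence of a change.

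**Figure D1:**
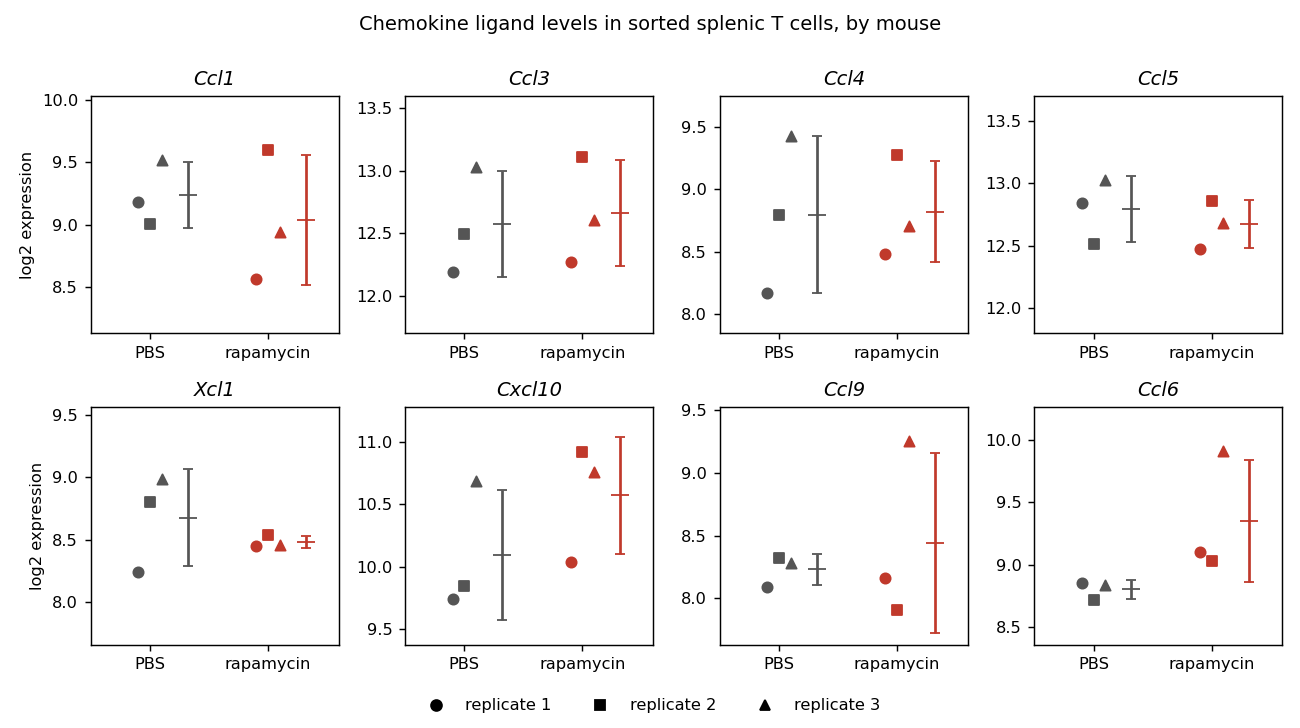
Log2 expression of each ligand in each mouse (grey PBS, red rapamycin, marker shape by replicate number), with the group mean and SD of 3 mice to the right of the points. Every panel spans the same log2 range. The rapamycin points lie above all PBS points for Ccl6 alone, and the groups overlap for the other 7 ligands.

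Ccl3 and Ccl4 encode macrophage inflammatory proteins 1 alpha and 1 beta, both released by activated T cells, and CCL3 acts through the receptor CCR1 among others. Ccl3 measured 12.19, 12.50 and 13.03 in the PBS mice and 12.27, 13.11 and 12.61 in the rapamycin mice. The groups span nearly the same range, with PBS mouse 3 and rapamycin mouse 2 high and both mice numbered 1 low. The difference was 0.09 (SE 0.25, 95% interval -0.48 to 0.66, limma adjusted p = 1).

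Ccl4 measured 8.17, 8.79 and 9.42 with PBS and 8.48, 9.27 and 8.71 with rapamycin. The same mice were high and low as for Ccl3. The difference was 0.03 (SE 0.30), and the group means were 8.80 ± 0.63 and 8.82 ± 0.41. For both genes its sign turned when PBS replicate 1 was left out (Ccl3 -0.10, Ccl4 -0.29) or rapamycin replicate 2 (Ccl3 -0.14, Ccl4 -0.20).

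Ccl5 encodes RANTES, a ligand of CCR1 and CCR3 among others that memory and effector T cells hold ready. It measured 12.84, 12.51 and 13.03 with PBS and 12.47, 12.86 and 12.68 with rapamycin. It was the steadiest of the 8, with a within-group SD of 0.23. The difference was -0.12 (SE 0.15, adjusted p = 1 in limma), and the groups overlapped. It was -0.0051 without PBS replicate 3 and -0.26 without PBS replicate 2.

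Ccl1, made by activated T cells and bound by CCR8, measured 9.18, 9.002 and 9.52 with PBS and 8.57, 9.60 and 8.94 with rapamycin. The rapamycin group held both the lowest and the highest mouse. The difference was -0.20 (SE 0.24), and it was 0.03 without rapamycin replicate 1.

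Xcl1 encodes lymphotactin, the C chemokine of CD8 T cells and natural killer cells that attracts XCR1-bearing dendritic cells. It measured 8.24, 8.80 and 8.98 with PBS and 8.45, 8.54 and 8.46 with rapamycin. All 3 rapamycin mice lay close to each other, above the lowest PBS mouse and below the others. The difference was -0.19 (SE 0.17), and it ran from -0.41 without PBS replicate 1 to -0.04 without PBS replicate 3.

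Cxcl10, the interferon-inducible ligand of CXCR3, measured 9.74, 9.84 and 10.69 with PBS and 10.04, 10.91 and 10.76 with rapamycin. PBS mouse 3 stood with the higher rapamycin mice, and rapamycin mouse 1 with the lower PBS mice. The group means were 10.09 ± 0.52 and 10.57 ± 0.47, a difference of 0.48 (SE 0.29, 95% interval -0.17 to 1.13, unadjusted p = 0.13, adjusted p = 1, limma). It was 0.78 without PBS replicate 3 and 0.30 without PBS replicate 1.

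Ccl6 measured 8.85, 8.72 and 8.84 with PBS and 9.10, 9.03 and 9.91 with rapamycin. All 3 rapamycin mice lay above all 3 PBS mice, and rapamycin mouse 3 stood well above the other two. The group means were 8.80 ± 0.07 and 9.35 ± 0.49, a difference of 0.54 (SE 0.21, 95% interval 0.07 to 1.02), with an unadjusted p of 0.0294 and an adjusted p of 1 in limma. Without rapamycin replicate 3 the difference was 0.26 (SE 0.09, limma unadjusted p = 0.0245, adjusted p = 0.999), less than 0.5 times its value over all mice. Over the fits without 1 mouse the unadjusted limma p ran from 0.0113, without rapamycin replicate 2, to 0.0839, without PBS replicate 2.

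Ccl9, whose product like CCL6 acts on CCR1, measured 8.09, 8.32 and 8.28 with PBS and 8.16, 7.90 and 9.25 with rapamycin. Rapamycin mouse 3 was again the highest, and rapamycin mouse 2 the lowest of all 6. The difference was 0.21 (SE 0.30), and it was -0.20 without rapamycin replicate 3.

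**Figure D2:**
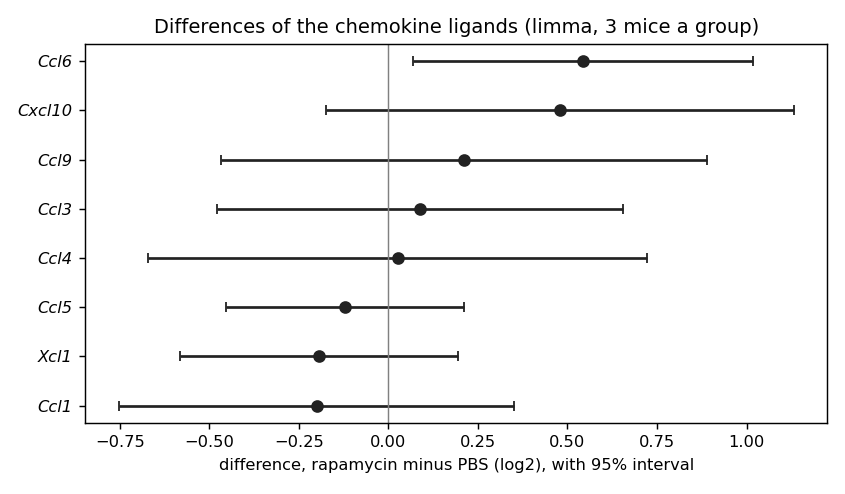
Difference of each ligand, rapamycin minus PBS in log2 units (x axis), with its 95% interval from limma over 3 mice a group. Only the interval of Ccl6 (0.07 to 1.02) leaves out 0, before adjustment over all genes.

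The within-group SD of the 8 ligands ran from 0.23 for Ccl5 to 0.53 for Ccl4, against a median of 0.12 over all genes, and all 8 stood between the 91.1 and the 99.5 percentile of that spread. Mouse-to-mouse differences in these genes were therefore large against those of most genes on the array. Some of the gene lists described below shared this. The median within-group SD was 0.42 over the ligands, 0.35 over other chemokine receptors, 0.41 over monocyte and macrophage markers and 0.64 over neutrophil markers. It was 0.11 over T cell markers and 0.12 over the other chemokine ligands. All 8 had mean levels above the array medians of 6.03 to 6.17. Levels of different ligands were not set against each other, since probe sets differ in how strongly they bind.

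The ligands followed 2 patterns over the mice. Ccl3, Ccl4, Cxcl10, Ccl1 and Ccl5 were highest in PBS mouse 3 and rapamycin mouse 2, except that for Cxcl10 rapamycin mouse 3 also stood above PBS mouse 3. Xcl1 was highest in PBS mouse 3 and close to its mean in rapamycin mouse 2. Ccl6 and Ccl9 were highest in rapamycin mouse 3, by 0.83 and 0.92 above their means over the 6 mice. Among the 28 pairs of ligands 18 had a positive Pearson's r over the 6 mice, and the median r was 0.43.

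**Figure D3:**
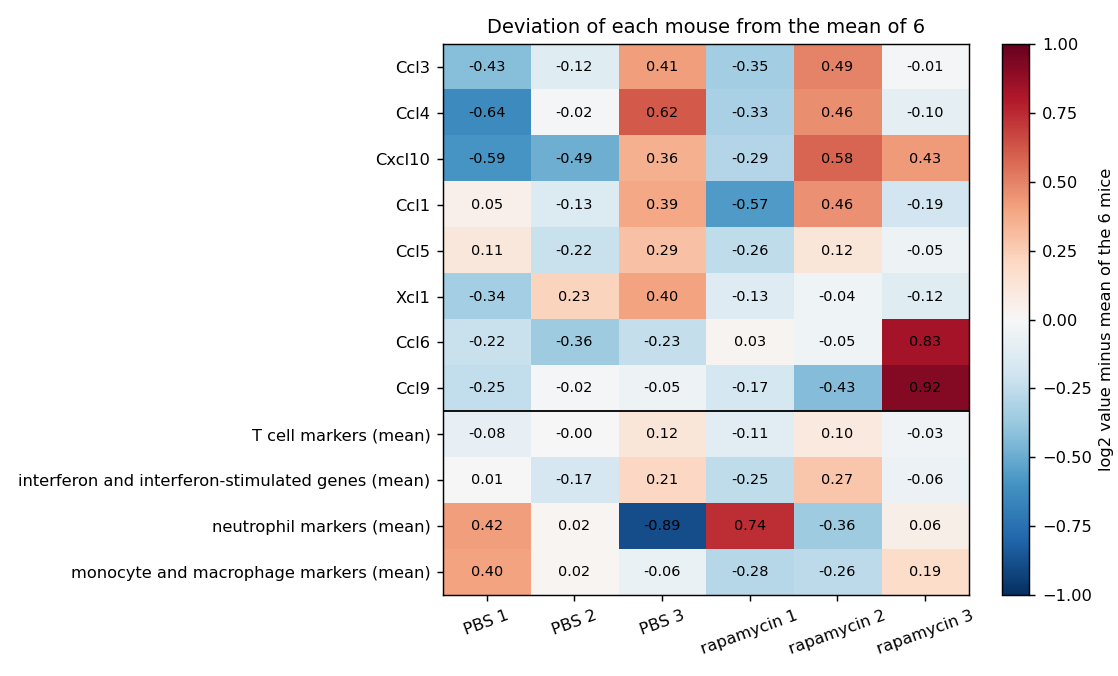
Deviation of each mouse (columns) from the mean of the 6 mice, in log2 units, for the 8 ligands and, under the line, for the mean of 4 gene lists. PBS 3 and rapamycin 2 are above the mean for Ccl3, Ccl4, Cxcl10, Ccl1 and Ccl5 and below it for the neutrophil list, and rapamycin 3 holds the highest Ccl6 and Ccl9.

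The closest pair was Ccl3 and Ccl4, which are adjacent genes, with r = 0.96 (exact permutation p = 0.00556, adjusted over the 28 pairs 0.156) and Spearman's rho = 0.89 (exact permutation p = 0.0333, adjusted 0.233). Without PBS mouse 3 and rapamycin mouse 2, the mice farthest from the Ccl3 median, r was 0.89. Ccl1 and Ccl5 gave r = 0.87 (exact permutation p = 0.0292, adjusted 0.376) and rho = 0.89 (exact permutation p = 0.0333, adjusted 0.233). Without rapamycin mice 1 and 2, the farthest from the Ccl1 median, r was 0.89. For Ccl3 and Cxcl10 the values were r = 0.86 (exact permutation p = 0.0403, adjusted 0.376) and rho = 0.89 (exact permutation p = 0.0333, adjusted 0.233). There r was 0.73 without PBS mouse 3 and rapamycin mouse 2. These tests are two-sided, the smallest p that 6 mice allow is 0.00278, and 0 of the 28 pairs passed after adjustment, while 3 had an unadjusted exact permutation p under 0.05 for r and 4 for rho. The fourth pair by rho was Ccl4 and Xcl1, with rho = 0.94 (exact permutation p = 0.0167, adjusted 0.233) and r = 0.78 (exact permutation p = 0.0722, adjusted 0.404), which was 0.19 without PBS mice 1 and 3.

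Ccl6 and Ccl9, neighbours on chromosome 11, gave r = 0.83 (exact permutation p = 0.147, adjusted 0.515) but rho = 0.03 (exact permutation p = 1, adjusted 1). Without rapamycin mice 2 and 3, the farthest from the Ccl9 median, r was -0.54, so the relation rests on those mice, and rapamycin mouse 3 is the one high for both genes. Ccl5 and its neighbour Ccl9 had r = -0.18 (exact permutation p = 0.774, adjusted 0.969) and rho = -0.31 (exact permutation p = 0.564, adjusted 0.718), with r = -0.41 without PBS mouse 3 and rapamycin mouse 1.

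**Figure D4:**
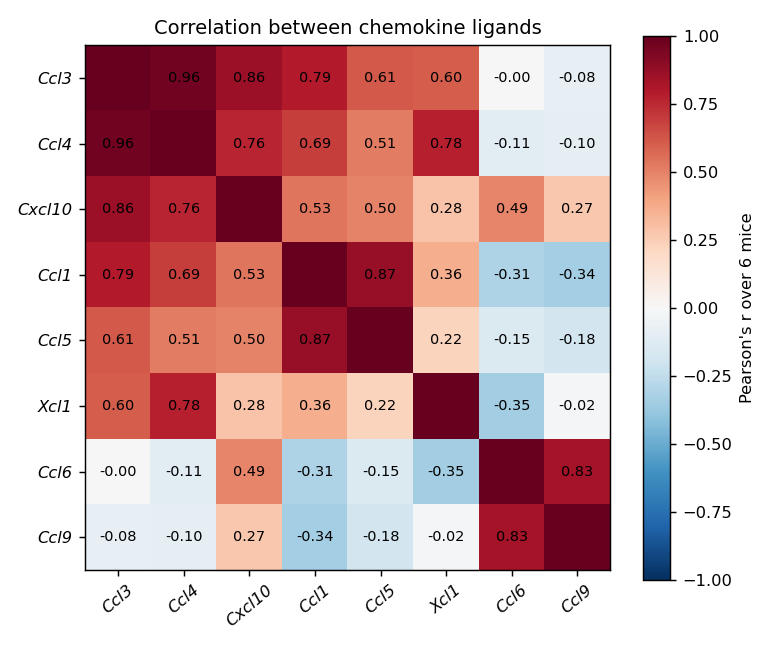
Pearson's r over the 6 mice for each pair of ligands (color from -1 to 1, value in each cell). The highest value is that of Ccl3 and Ccl4 (0.96), and Ccl6 and Ccl9 have values near or below 0 with Ccl3, Ccl4, Ccl1, Ccl5 and Xcl1.

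The genes whose levels were most like each ligand over the 6 arrays were sought among the 9968 others at or above the median level, by Pearson's r. For Ccl3 these were Gmds and Chst2 (both r at least 0.99), for Ccl4 Hrh2 and Endod1 (both 0.99), for Ccl5 S100a13 and Eif6 (both 0.99), for Ccl1 Irf3 and Dhps (both 0.99), for Xcl1 Atpaf2 and Commd2 (0.99 and 0.98), and for Cxcl10 Stk26 and Ppme1 (0.996 and 0.99). For Ccl9 they were Cebpa and Esm1 (0.98 and 0.96), and for Ccl6 Lyz1 and Aoah (both 0.97). With 6 arrays many genes reach such values: 291 lay above 0.9 for Ccl1, 287 for Ccl3 and 27 for Ccl9, so each list is a description.

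The sort was for T cells, and the mean of 11 measured T cell markers ran from 11.15 to 11.38 over the 6 mice. It was highest in PBS mouse 3 (11.38) and rapamycin mouse 2 (11.36), the mice with the highest Ccl3, Ccl4, Ccl1 and Ccl5. In this list Cd4, the co-receptor of helper T cells, measured 11.59, 11.70 and 12.05 with PBS and 11.46, 12.28 and 12.01 with rapamycin. The CD8 genes did not follow it in rapamycin mouse 2. Cd8a measured 11.57, 11.71 and 11.88 with PBS and 11.78, 11.76 and 11.705 with rapamycin. Cd8b1 measured 11.74, 11.63 and 11.79 with PBS and 11.65, 11.55 and 11.56 with rapamycin, lowest in rapamycin mouse 2. The part of these T cell marker differences in the ligand levels was not tested. Cd3e, a chain of the T cell receptor complex, differed by -0.03 (SE 0.08). The leukocyte gene Ptprc differed by -0.09. Of this list, 1 gene had an unadjusted limma p under 0.05, the T cell receptor regulator Cd5, at -0.19 (adjusted p = 1). Neutrophil and monocyte or macrophage markers were present too, and the means of these lists spread over 1.63 and 0.68 across the mice, against 0.23 for the T cell markers. In such bulk samples fewer cells of a type and less RNA per cell cannot be told apart. The mean of 16 neutrophil markers was 9.09, 8.69 and 7.78 in the PBS mice and 9.41, 8.31 and 8.73 in the rapamycin mice. Of the 16, 14 were measured higher with rapamycin and 0 had an unadjusted limma p under 0.05, with Camp at 0.66, Elane, neutrophil elastase, at 0.61 and Lcn2 at 0.45. The median of the list was 0.35, but 0.0056 without rapamycin replicate 1, 0.04 without PBS replicate 3, 0.68 without PBS replicate 1, 0.65 without rapamycin replicate 2 and 0.13 with array weights. S100a8, a calcium-binding protein of granulocytes, ran from 9.69 in PBS mouse 3 to 11.51 in rapamycin mouse 1. This list was lowest in PBS mouse 3 and second lowest in rapamycin mouse 2, the mice with the highest Ccl3 and Ccl4. Its r with Ccl4 was -0.91 (exact permutation p = 0.0181, adjusted over 24 pairs of a ligand and a list 0.142) and rho was -0.94 (exact permutation p = 0.0167, adjusted 0.133), with r = -0.999 without PBS mouse 3 and rapamycin mouse 1. With Ccl3 it was r = -0.90 (exact permutation p = 0.0194, adjusted 0.142) and rho = -0.83 (exact permutation p = 0.0583, adjusted 0.28), with r = -0.98 without them. With Ccl1 it was r = -0.83 (exact permutation p = 0.0403, adjusted 0.193) and rho = -0.77 (exact permutation p = 0.103, adjusted 0.352), with r = -0.58 without them. With Xcl1 it was r = -0.76 (exact permutation p = 0.0833, adjusted 0.258) and rho = -0.89 (exact permutation p = 0.0333, adjusted 0.2), with r = -0.54 without them. The part of these cells in the ligand levels was not tested.

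Ccl6 and Ccl9 had no such relation to the neutrophil list (r = 0.16, exact permutation p = 0.742, adjusted 0.89, and r = 0.01, exact permutation p = 0.971, adjusted 0.997; rho = 0.49, exact permutation p = 0.356, adjusted 0.656, and rho = -0.03, exact permutation p = 1, adjusted 1). Without PBS mouse 3 and rapamycin mouse 1, r was -0.09 and 0.16. The mean of 15 monocyte and macrophage markers was 8.34, 7.96 and 7.87 with PBS and 7.65, 7.67 and 8.12 with rapamycin. Rapamycin mouse 3, highest for Ccl6 and Ccl9, was thus the highest of its group but below PBS mouse 1. The single markers differed in this. Csf1r, Adgre1, Cd14, Lyz2, Cd68, Fcgr1, Itgam and C1qb were highest of all 6 mice in rapamycin mouse 3. Spic, Vcam1, Cd163 and Mrc1 were highest in PBS mouse 1, C1qa and C1qc in PBS mouse 2, and Ms4a7 in PBS mouse 3. Of the 15, 10 were lower and 5 higher with rapamycin (median -0.16, and -0.0071 without PBS replicate 1, 0.0021 without rapamycin replicate 1, -0.09 without rapamycin replicate 2, -0.31 without rapamycin replicate 3, -0.01 when the dimmer 50% of genes were left out, and -0.02 where arrays were weighted). The mean of the list had r = 0.13 with Ccl6 (exact permutation p = 0.821, adjusted 0.912) and rho = -0.14 (exact permutation p = 0.803, adjusted 0.876), with r = 0.59 without PBS mouse 1 and rapamycin mouse 1. With Ccl9 it was r = 0.38 (exact permutation p = 0.486, adjusted 0.729) and rho = 0.31 (exact permutation p = 0.564, adjusted 0.752), with r = 0.93 without them. Within this list 4 of 15 had an unadjusted limma p under 0.05, against 4.67% of all genes. Spic, a factor of red pulp macrophages, at -1.34, Ms4a7 at -0.26 and the complement gene C1qa at -0.56 were lower. Ms4a7 averaged 4.14 over the 6 mice, low on the scale of the array. The 1 higher gene was Lyz2, the lysozyme of myeloid cells, at 0.29. Lyz2 measured 12.27, 12.11 and 12.25 with PBS and 12.29, 12.47 and 12.72 with rapamycin, so rapamycin mouse 3 was the highest and the groups did not overlap, as for Ccl6. The part of myeloid cells in the Ccl6 difference was not tested.

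The other cell type lists held no gene past the adjusted threshold. Their counts at an unadjusted limma p under 0.05 stand beside 4.67% of all genes. B cell markers had 1 of 7 (Cd79b, -0.54, with Cd79a at -0.05), natural killer cell markers 2 of 6 (Ncr1 at -0.24 and Itga2 at -0.65), and dendritic cell, platelet, and mast cell and basophil markers 0 of 9, 0 of 4 and 0 of 6. Ncr1, the defining receptor of natural killer cells, which also make Xcl1 and Ccl5, ran from 3.94 to 4.36 and thus low on the scale of the array. List means per mouse ran from 5.02 to 5.17 for B cells, from 5.64 to 6.16 for natural killer cells, from 6.83 to 6.98 for dendritic cells, from 4.87 to 4.97 for platelets and from 4.71 to 5.40 for mast cells and basophils.

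Interferon and interferon-stimulated genes, the program to which Cxcl10 belongs, had 16 measured members, 7 higher and 9 lower with rapamycin (median -0.05). Of them 0 passed the adjusted threshold and 3 had an unadjusted limma p under 0.05, against 4.67% of all genes. These were Ifit3, an antiviral effector, at -0.65, the guanylate-binding protein Gbp5 at 0.31 and Cxcl9 at 0.61. Irf7, the interferon regulator, was the fourth by p, at -0.35. Ifng itself, which encodes interferon gamma, measured 9.98, 10.19 and 10.66 with PBS and 10.27, 11.16 and 10.60 with rapamycin, highest in rapamycin mouse 2 and PBS mouse 3 as Ccl3 was. The mean of the list per mouse was closest to Ccl1 (r = 0.96, exact permutation p = 0.00417, adjusted 0.1; rho = 0.94, exact permutation p = 0.0167, adjusted 0.133; r = 0.87 without PBS mouse 3 and rapamycin mouse 2) and Ccl5 (r = 0.90, exact permutation p = 0.0236, adjusted 0.142; rho = 0.94, exact permutation p = 0.0167, adjusted 0.133; r = 0.97 without them). With Cxcl10 it was r = 0.68 (exact permutation p = 0.176, adjusted 0.397) and rho = 0.49 (exact permutation p = 0.356, adjusted 0.656), and r = 0.09 without them. Of the 24 pairs of a ligand with the neutrophil, monocyte and macrophage, or interferon list, 5 had an unadjusted exact permutation p under 0.05 for r and 4 for rho, and 0 passed after adjustment.

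The other chemokine ligands gave little signal in these cells. Of 28 measured, 3 had a mean above the median gene, 13 were higher and 15 lower with rapamycin (median -0.01), and 0 passed the threshold. Cxcl9, the second CXCR3 ligand and induced by interferon gamma, measured 9.18, 9.83 and 10.17 with PBS and 9.88, 10.48 and 10.64 with rapamycin, a difference of 0.61 (SE 0.26, limma unadjusted p = 0.0485, adjusted p = 1). Both Cxcl9 and Cxcl10 were higher in rapamycin mice 2 and 3 than in any PBS mouse. The monocyte attractants Ccl12 and Ccl8 differed by -0.31 and -0.20 and the neutrophil attractant Cxcl3 by 0.17, all at levels under 5. Ccl12 had the smallest p of the 28 (limma unadjusted p = 0.0229). Its groups did not overlap, while those of Cxcl9 did. Groups without overlap were found for 4 of the 28, 1 higher and 3 lower with rapamycin, against 9.42% of all genes.

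Of the receptors for the ligands, 5 were measured on the same arrays. Cxcr3, the receptor of CXCL9 and CXCL10 on effector T cells, measured 10.81, 11.05 and 11.07 with PBS and 10.59, 10.60 and 10.83 with rapamycin, a difference of -0.30 (SE 0.10, limma unadjusted p = 0.0183, adjusted p = 0.982). The lowest PBS mouse lay just under the highest rapamycin mouse. Ccr3, a CCL5 receptor best known from eosinophils, differed by -0.45 (unadjusted p = 0.0438 in limma) and Xcr1 by -0.22. The groups did not overlap for these 2 of the 5 receptors, and for 9.42% of all genes. Ccr3 measured 6.70, 5.87 and 6.02 with PBS and 5.68, 5.82 and 5.74 with rapamycin, so PBS mouse 1 stood well above the rest. Xcr1 averaged 4.85 over the 6 mice, below the median gene. Ccr8, the CCL1 receptor, differed by -0.01, and Ccr1, which binds CCL3, CCL5, CCL6 and CCL9, by 0.43 (SE 0.28), with its highest value, 8.54, in rapamycin mouse 3. Of 12 other chemokine receptors 8 were lower and 4 higher (median -0.08), and only Cxcr5, the B follicle receptor, had an unadjusted limma p under 0.05 (-0.70, SE 0.21, adjusted p = 0.97). Cx3cr1, Cxcr4 and Ccr4, next by p, had -0.21, 0.16 and -0.15.

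Genes that act around the ligands were described by 3 further lists, with 0 members past the adjusted threshold. Over all genes 4.67% had an unadjusted limma p under 0.05. Among 7 scavengers and modifiers of chemokines the decoy receptors Ackr2 (-0.29) and Ackr3 (0.25) had an unadjusted limma p under 0.05 (adjusted p = 1), and Ccrl2 and Ackr4 had 0.27 and 0.08. Among 13 genes of chemokine receptor signalling 9 were lower and 4 higher (median -0.04). Rgs16, which shortens G protein signals in activated T cells, was the 1 gene of them with an unadjusted limma p under 0.05 (0.66, SE 0.29, adjusted p = 1), a difference larger than that of any of the 8 ligands, and Rgs1, Pik3cg and Grk6 had 0.44, -0.17 and -0.13. Among 14 transcription factors that act on T cell chemokine genes 0 had an unadjusted limma p under 0.05, 8 were lower and 6 higher (median -0.06), and Batf3, Jun, Nfatc3 and Eomes, first by p, had 0.15, 0.14, -0.12 and -0.25.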

How the data were processed

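Total RNA of CD3-sorted spleen cells was hybridised to 1 whole-transcript Affymetrix array per mouse. The deposited values are log2 expression made by the authors with Affymetrix Expression Console and RMA, per the submitters' processing notes, with versions and build not given in the sources used here. RMA equalises the distributions of the arrays, so a shift shared by most genes would not be seen, and compresses low values. Of 35556 probe sets, 21789 name exactly 1 gene in the platform's probe table. Where a gene had several, the one highest on average was kept, which left 19938 genes. Rapamycin and PBS, 3 mice each by sample title, were compared with limma 3.58.1 in R 4.3.3 (lmFit, eBayes, two-sided, 8.44 degrees of freedom), with Benjamini-Hochberg adjustment over all genes; genes under 0.05 are said to pass. No low-value filter was set. The fit was tested on simulated data. The number of arrays limits the precision.

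The members and gene lists were chosen with earlier results of these data known. Genes named outside the 8 ligands are up to 4 per list with the smallest p (all 5 receptors of the ligands that were measured), Cd3e, Ptprc, S100a8, Lyz2, Cd79a and Ncr1, and the 2 genes most like each ligand. Ifng, Cd4, Cd8a and Cd8b1 were named after their values were seen, as were the monocyte and macrophage markers sorted by their highest mouse. Correlations over mice used exact permutation of pairings in Python 3.11.15. Alternatives were other weights, priors, normalization, probe set choice and filter, the replicate number as a block, and each mouse left out.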

Additional observations from a re-analysis of the deposited data

How the results depend on the processing

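No ligand passed the threshold under any of the 12 alternatives of the gene test. Over these the adjusted limma p of Ccl6 ran from 0.578 to 1 and that of Cxcl10 from 0.581 to 1, and both kept their direction, as Ccl5 and Xcl1 did. When each mouse was left out in turn, the difference of Ccl1 ran from -0.480 to 0.0328, of Ccl3 from -0.14 to 0.32, of Ccl4 from -0.29 to 0.34, of Ccl9 from -0.20 to 0.48, of Cxcl10 from 0.30 to 0.78 and of Ccl6 from 0.26 to 0.70. The number of genes past the threshold ran from 0 to 7 in those fits, against 1 over all mice. It was 0 with the replicate number as a block. Same-numbered mice deviated together with correlations of 0.0861, -0.192 and 0.195, and PBS mice 2 and 3 correlated best with rapamycin mice of another number, so the numbers were not taken as pairs. Without the lowest 50% of genes 3 of the other chemokine ligands were left, and their median was 0.11. The median r between ligands ran from 0.24 (without PBS replicate 3) to 0.50 when each mouse was left out, an alternative chosen after seeing the data, and was 0.42 with group-centred values.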
